A study of Mus musculus with 36 samples.

Results

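The nuclear genes that encode the subunits of oxidative phosphorylation were followed through 36 RNA libraries of the mouse macrophage cell line RAW264.7. Members were taken by symbol from the deposited gene tables (names starting Nduf, Sdh, Uqcr, Cox4 to Cox8 or Atp5, pseudogenes left out), and had to reach 10 or more counts in every library of a table. Of 49568 gene names, 84 matched, and 77 met the count minimum in the IFNγ table and 78 in the Il-4 table. All 77 members of the IFNγ table were also members in the Il-4 table. Complex I contributed 35 members, complex II 4, complex III 8, complex V 15 and complex IV 13 in the IFNγ table and 14 in the Il-4 table. The remaining 2 members, Atp5s and Atp5sl, carry ATP synthase symbols but are not subunits of the enzyme. The values that chose the members were the counts themselves, so detection is no finding here. Just inside the minimum stood Atp5s, with 80 to 232 counts per library in the IFNγ table, and Ndufb2, with 139 to 353. Just outside stood Cox7a1, the muscle form of a cytochrome c oxidase subunit, with 5 to 88 counts in the IFNγ table, which passed in the Il-4 table with 44 to 112. The other six symbols outside were forms known from lung, testis, muscle or hypoxic cells: Cox4i2 had 0 to 61 counts in the IFNγ table and 0 to 19 in the Il-4 table, Ndufa4l2 had 0 to 10 and 1 to 8, and Cox6b2, Cox7b2, Cox8b and Cox8c had at most 1.

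Oxidative phosphorylation runs in the inner mitochondrial membrane. Complex I takes electrons from NADH and complex II from succinate, ubiquinone carries them to complex III, cytochrome c carries them on to complex IV, which reduces oxygen, and complex V, the ATP synthase, uses the proton gradient that complexes I, III and IV build. Most subunits are encoded in the nucleus, a few in mitochondrial DNA, and complex II is nuclear throughout. In macrophages, activation by IFNγ is classically associated with glycolysis and activation by Il-4 with mitochondrial respiration.

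The study asked whether short synthetic peptides from the third allelic hypervariable region of human HLA-DRβ chains shift macrophage polarization. The peptide labelled SE carries the shared epitope, a rheumatoid arthritis risk sequence, and the peptide labelled PE carries the protective epitope. RAW264.7 cells, which are 1 transformed line and not primary macrophages, were kept for 72 h with phosphate buffered saline (PBS), with SE or with PE, each peptide at 100 µg/ml, in an M1 series with 5 ng/ml IFNγ or an M2 series with 5 ng/ml Il-4. Each series held 18 libraries, 6 for each of PBS, SE and PE. The study describes the 6 as biological replicates from 2 independent experiments, and the labels do not say which libraries came from which. Replicates 1 to 3 and 4 to 6 were named by different schemes and are kept apart here as 2 replicate sets. The sources do not settle whether PBS cells received the cytokine, so a difference from PBS may hold the effect of the cytokine, of the peptide or of both, and these cannot be told apart.

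Depth was 20666573 to 63155889 counts per library in the IFNγ series and 17049921 to 30639021 in the Il-4 series. Macrophage markers were detected in every library, with 0 of 10 at 0. B cell, epithelial and fibroblast marker lists summed to at most 1.27 CPM (TMM-scaled counts-per-million, the level used throughout), and the T cell list to 5.87 to 18.4 CPM with 2 to 4 of its 5 genes at 0. A list of 12 IFNγ-induced genes served as a check on the labels: in M1 replicates 1 to 3 its sum was 70.8 to 78.4 CPM for PBS, 1102 to 1259 CPM for SE and 1299 to 1353 CPM for PE. In replicates 4 to 6 its sum was 80.6 to 92.4 CPM for PBS, 1202 to 1333 CPM for PE and 72.1 to 80.5 CPM for the libraries labelled SE. The 3 libraries labelled SE 4 to 6 therefore went against their IFNγ label, and SE results of the IFNγ series are kept apart by replicate set. Rows of 7SL and 7SK RNA (symbols starting Rn7s) took 15.0 to 20.4% of counts in IFNγ replicates 4 to 6. They took 1.39 to 1.99% in Il-4 replicates 4 to 6 and at most 0.00538% in replicates 1 to 3 of either series. Histone rows (symbols starting Hist1 to Hist4) took 0.236 to 0.629% in IFNγ replicates 4 to 6 and 0.338 to 1.55% in Il-4 replicates 4 to 6. In replicates 1 to 3 of either series they took at most 0.0187%. The part of this RNA content in the differences between replicate sets was not tested. In the Il-4 series, 8 Il-4-induced genes summed to 1.64 to 2.38 CPM in PBS and 49.1 to 155 CPM with either peptide. The PBS libraries of both series thus lacked the response that these lists show in the peptide libraries. Apart from the libraries labelled SE 4 to 6 of the IFNγ series, each contrast with PBS set responding libraries against libraries without it.

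The summed level of the members was 9675 ± 176 CPM (SD, n = 3) in PBS replicates 1 to 3 of the IFNγ series, 8307 ± 76.5 with SE and 8904 ± 315 with PE. In replicates 4 to 6 it was 7097 ± 208 in PBS, 7772 ± 190 in the libraries labelled SE and 6602 ± 135 with PE. In replicates 1 to 3 of the Il-4 series it was 13120 ± 80.1 in PBS, against 16430 ± 1723 with SE and 15670 ± 484 with PE, and was 11240 ± 742, 11110 ± 565 and 11950 ± 599 in replicates 4 to 6. In bulk RNA, fewer cells and less RNA per cell cannot be told apart, and a CPM is a share of the library and not an amount per cell.

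**Figure D1:**
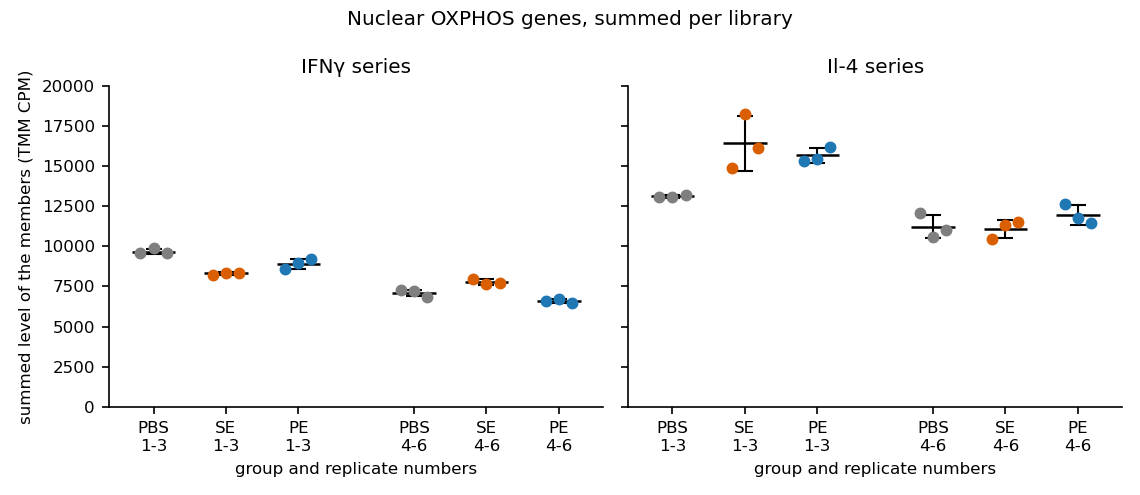
Summed level of the nuclear oxidative phosphorylation genes (77 in the IFNγ table, 78 in the Il-4 table) in each library, in TMM-scaled CPM; points are libraries, bars the mean and SD of 3. In the IFNγ series SE and PE libraries 1 to 3 lie below the PBS libraries, while in replicates 1 to 3 of the Il-4 series they lie above them.

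Among the members, levels can be compared per kilobase of transcript, taking the median length of each gene's GENCODE protein-coding transcripts. That length was 2675 bases for Atp5g1 and 586 for Atp5g2, and it need not be the length expressed in these cells. Atp5b, the catalytic β subunit of the ATP synthase, stood first in PBS cells of all 4 sets, at 581 ± 9.75 and 543 ± 9.32 CPM per kb in the IFNγ series and 867 ± 29.3 and 785 ± 54.7 CPM per kb in the Il-4 series. Cox4i1, a regulatory subunit of complex IV, stood second in each, at 558 ± 29.0, 301 ± 18.4, 811 ± 31.3 and 596 ± 41.2 CPM per kb. In replicates 1 to 3 these neighbours differed by less than the sum of their SDs in both series, whereas in replicates 4 to 6 they lay apart. Uqcrh, the hinge protein of complex III that helps bind cytochrome c1, was the third in replicates 1 to 3 of both series, at 447 ± 37.6 and 599 ± 57.9 CPM per kb. Atp5s stood last of the members with a known transcript length in every set, between 2.41 and 4.88 CPM per kb. Some members differed strongly in level between the PBS libraries of the IFNγ and Il-4 tables. Atp5l, the g subunit of the ATP synthase, had 175 to 186 CPM in PBS replicates 1 to 3 of the IFNγ table. In PBS replicates 1 to 3 of the Il-4 table it had 5.20 to 6.52 CPM. Rows named Atp5l-ps1 and Atp5l2-ps, pseudogene copies of that gene, held a median of 680 and 911 counts in the IFNγ table and 2 and 3 in the Il-4 table, so levels of Atp5l are uncertain.

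In the IFNγ series, replicates 1 to 3, most members that differed between SE and PBS were lower with SE. By edgeR's quasi-likelihood test with Benjamini-Hochberg adjustment over all 15343 genes, 42 members fell and 4 rose at an adjusted p under 0.05, against 24.6% of all genes lower and 24.3% higher. The median member stood at -0.20 on the log2 scale, with the median of all genes at -0.01. The falls were small, and 7 members (Ndufa4, Ndufb3, Ndufs8, Uqcrh, Sdhd, Atp5j and Atp5j2) fell by more than 1.5-fold, against 10.2% of all genes. In complex I, 21 of 35 members fell and 1 rose. In complex II, 3 of 4 fell, in complex III 4 of 8, in complex V 10 of 15, and in complex IV 4 of 13 fell and 3 rose.

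The member that fell furthest with SE was Ndufa4, a small subunit now assigned to complex IV (chr6:11900292-11907497, minus strand, GRCm38, GENCODE). It had 94.9, 84.9 and 79.4 CPM in PBS and 47.3, 49.9 and 47.9 CPM with SE, so the groups did not overlap, and its change was -0.81 ± 0.07 (log2 fold change ± its standard error, adjusted p = 2.83e-07). Ndufb3 (chr1:58586384-58595964, plus strand), a membrane arm subunit of complex I, had 44.8, 43.3 and 41.3 CPM in PBS and 25.9, 24.6 and 26.0 CPM with SE, a change of -0.73 ± 0.08 (adjusted p = 2.76e-06). Ndufs8, which carries iron-sulfur clusters in complex I, went from 170, 180.2 and 176 CPM to 108, 114 and 108 CPM, a change of -0.65 ± 0.06 (adjusted p = 1.28e-06). In all 3 genes the SE libraries lay close together and well below the lowest PBS library.

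The catalytic core was not uniform. In complex I, Ndufs1, a core subunit of the electron path, fell with SE by 0.54 on the log2 scale, while Ndufv1, which binds NADH, stood at 0.10 and Ndufs3 at 0.11, neither past the test. In complex II, the flavoprotein Sdha fell by 0.52 and the membrane anchors Sdhc and Sdhd fell by 0.56 and 0.60, while the iron-sulfur subunit Sdhb stood at -0.03 (adjusted p = 0.699). In complex III the core proteins Uqcrc1 and Uqcrc2 stood at -0.14 and -0.05, not past the test, and the Rieske protein Uqcrfs1 fell by 0.20. In complex V the α subunit Atp5a1 fell by 0.57, while the β subunit Atp5b stood at -0.06 (adjusted p = 0.413). The members that rose with SE were Cox6a2, the muscle form of a complex IV subunit, by 0.31, Ndufs4, an accessory subunit of complex I, by 0.24, Cox5a by 0.16 and Cox7a2l, which joins complexes III and IV in supercomplexes, by 0.16.

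Summed by complex, SE stood furthest below PBS, in proportion, in complex II. Its 4 members summed to 568 ± 22.9 CPM in PBS, 417 ± 8.64 CPM with SE and 459 ± 12.1 CPM with PE. Complex I summed to 2357 ± 68.4 CPM in PBS and 1978 ± 50.2 CPM with SE, and to 2285 ± 109 CPM with PE, which lay less than the SD of the PE libraries away from PBS. Complex V summed to 3744 ± 17.3 CPM in PBS, 3147 ± 37.5 CPM with SE and 3320 ± 61.4 CPM with PE, and complex IV to 1971 ± 63.4, 1871 ± 10.4 and 1914 ± 107 CPM. Complex II also serves the citric acid cycle, where it oxidizes succinate. Its anchor gene Sdhd had 127, 115 and 106 CPM in PBS, 74.0, 73.5 and 78.3 CPM with SE and 71.4, 75.5 and 78.5 CPM with PE. Both peptide groups of Sdhd lay below PBS and overlapped each other. Sdhb of the same complex had 119.5, 122 and 119.6 CPM in PBS, 114, 117 and 117 CPM with SE and 137, 148 and 146 CPM with PE.

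**Figure D2:**
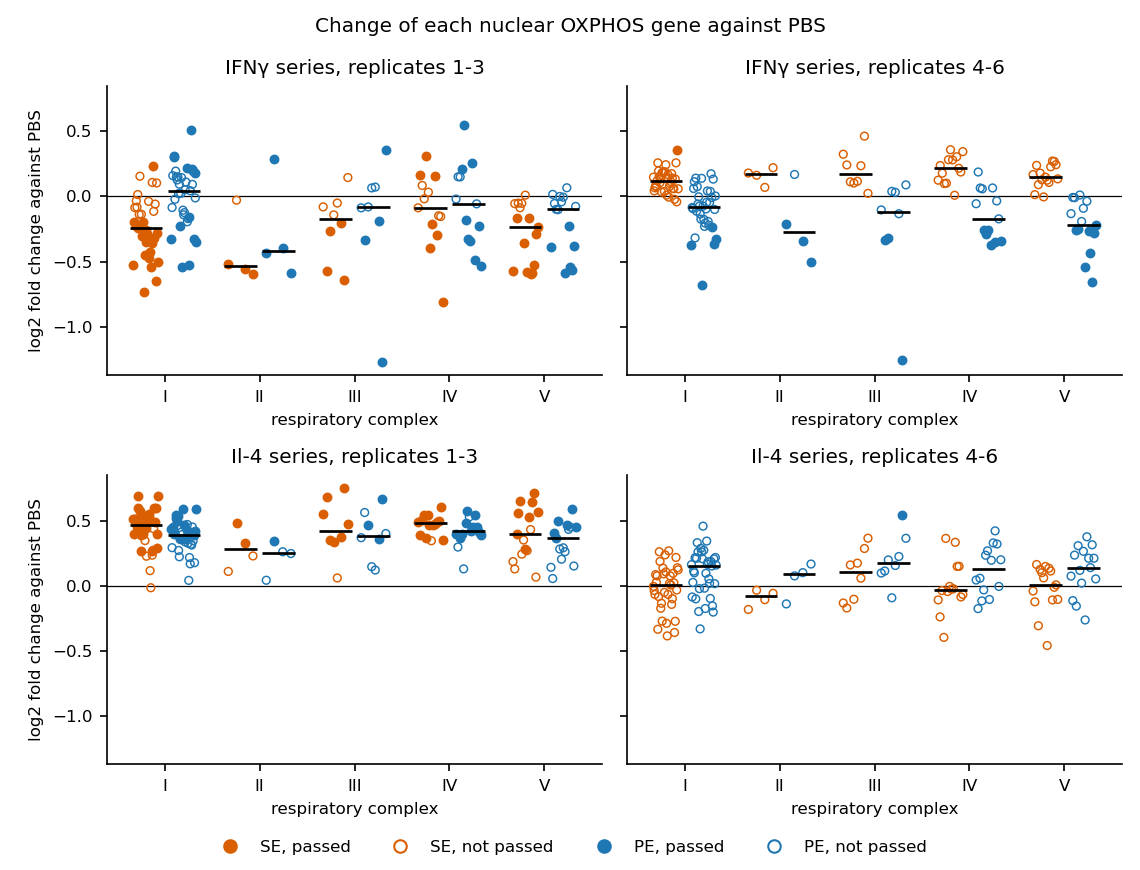
Log2 fold change against PBS of each subunit gene, grouped by respiratory complex (x axis), with SE in orange and PE in blue, 1 panel per series and replicate set; filled points passed the test and black lines are medians. In the IFNγ series the filled points lie mostly below 0, in Il-4 replicates 1 to 3 all lie above 0, and SE has 1 filled point in replicates 4 to 6 of the 2 series together.

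With PE, replicates 1 to 3 of the IFNγ series showed 25 members lower and 12 higher than PBS, against 24.3% of all genes lower and 23.2% higher. The 32.5% of members that fell were thus closer to the background than with SE, and the median member stood at -0.04. SE and PE were set against the same 3 PBS libraries, so their changes are not independent. Complex I was split, with 7 of 35 members lower and 7 higher, complex II had 3 lower and 1 higher, complex III 3 and 1 of 8, complex IV 6 and 3 of 13, and complex V 6 lower and 0 higher of 15.

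Uqcrh (chr4:116066965-116075071, minus strand, GRCm38) fell further with PE than any other member. It had 216, 227 and 192 CPM in PBS, 143, 129 and 128 CPM with SE, and 77.2, 81.9 and 96.9 CPM with PE. All SE libraries lay below all PBS libraries, and all PE libraries lay below all SE libraries. The change was -1.27 ± 0.09 with PE (adjusted p = 5.93e-08), -0.64 ± 0.09 with SE (adjusted p = 2.82e-05), and 0.63 ± 0.09 between SE and PE (adjusted p = 0.000191). The pseudogene rows Uqcrh-ps1 and Uqcrh-ps2 held at most 71 and 79 counts in any IFNγ library. Sdhd, Atp5g3 and Atp5k, the last a small membrane subunit of the ATP synthase, fell with PE by 0.59, 0.59 and 0.57. Past 1.5-fold, Uqcrh, Sdhd and Atp5g3 fell, 3 members against 9.54% of all genes.

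Other members rose with PE. Cox6a2 had 54.5, 63.4 and 56.0 CPM in PBS and 73.5, 80.4 and 93.7 CPM with PE, a change of 0.55 ± 0.10 (adjusted p = 0.000335). Ndufs4 had 49.3, 47.5 and 41.4 CPM in PBS and 64.1, 64.0 and 63.3 CPM with PE, a change of 0.51 ± 0.06 (adjusted p = 2.42e-05). Uqcrq, a small subunit of complex III, rose by 0.35, Ndufa12 by 0.30 and Sdhb by 0.29. Within complex II, Sdhb thus rose with PE while Sdha, Sdhc and Sdhd fell by 0.44, 0.40 and 0.59.

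In replicates 4 to 6 of the IFNγ series, 25 members were lower with PE and 0 higher, against 12.1% of 15563 genes lower and 12.5% higher, with 34 members at an unadjusted p under 0.05 in either direction and 23 called by DESeq2. The median member stood at -0.10. Complex V had 8 of 15 members lower, complex IV 6 of 13, complex I 5 of 35, and complexes II and III 3 each of 4 and 8. Leaving out 1 library took the count to 11 without PBS replicate 4, 14 without PBS replicate 5, 16 without PE replicate 4 and 15 without PE replicate 6.

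Uqcrh again moved most. It had 107, 110.5 and 79.6 CPM in PBS and 38.4, 44.3 and 41.3 CPM with PE, so the groups lay apart, and the change was -1.26 ± 0.13 (adjusted p = 1.98e-05). Ndufb3 went from 44.5, 41.5 and 36.5 CPM to 23.9, 27.3 and 25.1 CPM, a change of -0.68 ± 0.10 (adjusted p = 0.000297). Atp5k went from 19.5, 23.0 and 18.03 CPM to 12.3, 12.3 and 13.5 CPM, a change of -0.66 ± 0.11 (adjusted p = 0.000983). Atp5g3 went from 63.5, 55.8 and 52.2 CPM to 35.9, 41.2 and 40.8 CPM, and Sdhd from 87.6, 86.8 and 81.1 CPM to 58.7, 61.5 and 59.9 CPM. In each of these 5 genes every PE library lay below every PBS library. Sdhb, with 89.9, 88.3 and 87.7 CPM in PBS and 96.6, 109 and 93.6 CPM with PE, stood at 0.17 (adjusted p = 0.0942). Uqcrh, Ndufb3 and Atp5k were those lower by more than 1.5-fold, against 4.66% of all genes. Cox6a2 fell by 0.26 (adjusted p = 0.0376), against its rise in replicates 1 to 3.

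**Figure D3:**
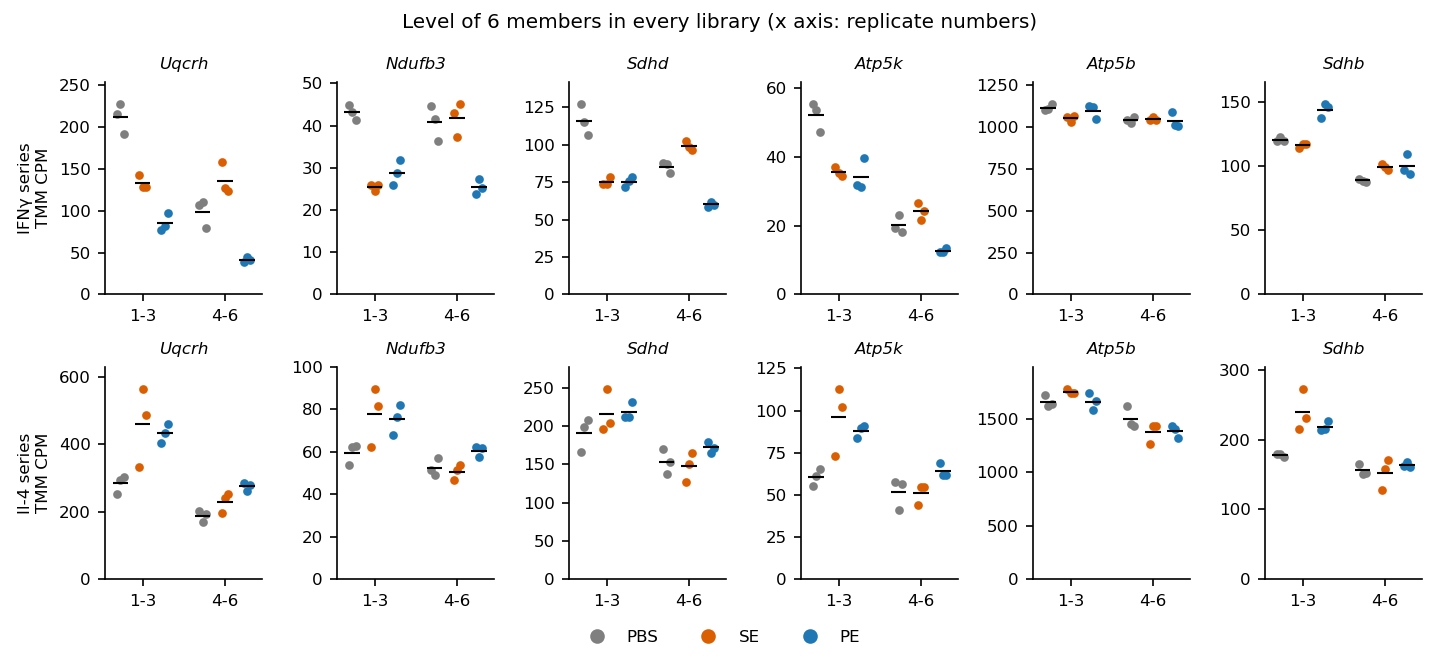
Level in TMM-scaled CPM of Uqcrh, Ndufb3, Sdhd, Atp5k, Atp5b and Sdhb in every library, IFNγ series above and Il-4 series below, for PBS (grey), SE (orange) and PE (blue); lines are means of 3. In the IFNγ series the PE points of Uqcrh, Ndufb3, Sdhd and Atp5k lie below the PBS points in both replicate sets, while those of Atp5b overlap.

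The PE result could be compared between replicate sets, which share no library. Of the 25 members lower with PE in replicates 1 to 3, 19 (76%) were also lower in replicates 4 to 6, where they made up 76% of the 25. Over all genes tested in both sets, the shared genes were 38% of those lower in replicates 1 to 3 and 75.3% of those lower in replicates 4 to 6. The sign of the change was the same for 60 of 77 members (77.9%) and for 70.7% of all genes. The 19 members were Ndufa1, Ndufb3, Ndufs8 and Ndufv3 of complex I, Sdha, Sdhc and Sdhd of complex II, Uqcrh and Uqcr11 of complex III, Ndufa4, Cox6b1, Cox6c, Cox7a2 and Cox7b of complex IV, and Atp5g3, Atp5j, Atp5j2, Atp5k and Atp5l of complex V. The test of the difference between replicate sets was past the threshold for 5 members. Atp5a1, Ndufs1 and Sdha were higher in replicates 4 to 6, against 7.87% of all genes, and Cox6a2 and Ndufv1 were lower, against 3.58%. Without PBS replicate 1, 2, 3, 4 or 6, SE replicate 1, 2 or 3, or any 1 PE library that count was 1 to 3, and it was 3 with the replicate block.

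For SE no such repeat was seen. In replicates 4 to 6, where the libraries labelled SE lack the IFNγ response, 1 member rose against PBS and 0 fell, against 0.456% and 0.752% of all genes. Another 29 members had an unadjusted p under 0.05, and DESeq2 called 10. The member past the test was Ndufv2, a complex I subunit of the NADH-binding arm, with 57.1, 57.3 and 52.2 CPM in PBS and 67.5, 70.7 and 74.6 CPM with SE, a change of 0.36 ± 0.07 (adjusted p = 0.0362). It did not pass without PBS replicate 5 or 6, SE replicate 4, 5 or 6, or PE replicate 5 or 6, and 2 members passed without PBS replicate 4. The median member stood at 0.14 and 73 of 77 members had a positive value. A total of 15 of 77 members (19.5%) had the same sign of SE change in both sets, against 41.7% of all genes, and the difference between sets passed the test for 50 members, all higher in replicates 4 to 6, against 18.9% of all genes in that direction.

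**Figure D4:**
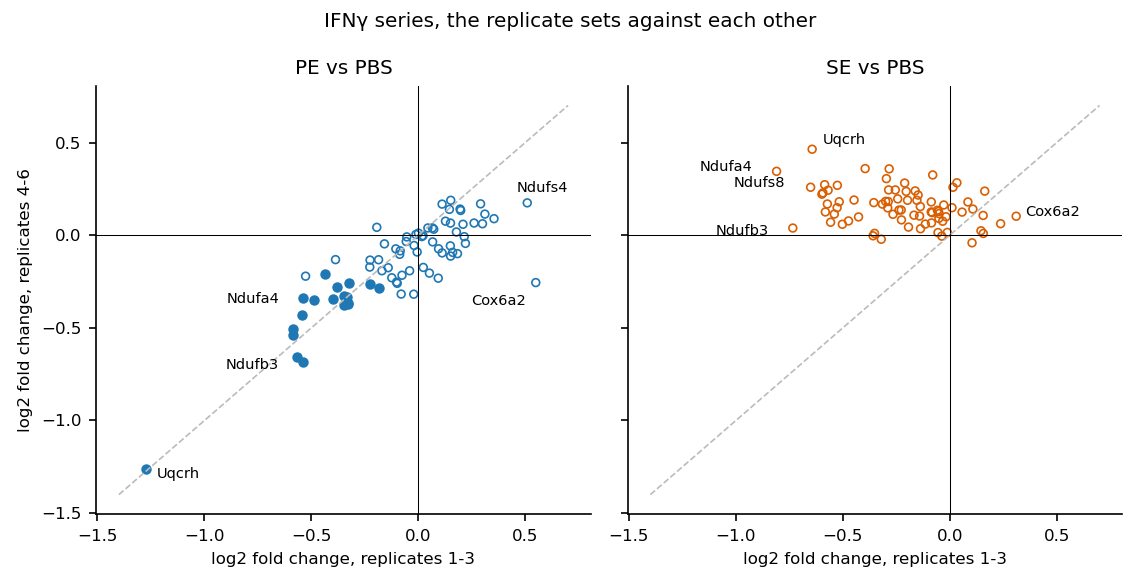
Log2 fold change against PBS in replicates 1 to 3 (x axis) and 4 to 6 (y axis) of the IFNγ series for each of the 77 members, PE on the left and SE on the right; filled points were lower in both sets and the dashed line marks equal change. Uqcrh lies at -1.27 and -1.26 with PE, and most SE points lie to the left of 0 and above it.

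SE and PE, which differ in a few residues of the epitope, were also compared directly. In replicates 1 to 3 of the IFNγ series, 31 members were lower and 3 higher with SE than with PE, against 11.1% and 12.6% of all genes. Of the 31, 22 belonged to complex I, where 0 members were higher. Ndufa12 had 56.3, 61.3 and 58.7 CPM with SE and 76.3, 87.5 and 87.8 CPM with PE, a difference of -0.53 ± 0.07 (adjusted p = 0.000111). Ndufb2 and Ndufb8 were lower by 0.43 each, and Uqcrh, Cox6b1 and Cox7b were higher with SE by 0.63, 0.22 and 0.19. Leaving out SE replicate 1, SE replicate 3 or PE replicate 3 took the count of 34 to 14, 19 and 17. For 73 of 77 members the 95% interval of the difference lay within 1.5-fold either way. The background differed with transcript length. Of other protein-coding genes under 600 bases, 13.7% were lower with SE and 7.37% higher. Those shares were 19.3% and 5.66% from 600 to under 1000 bases and 17.8% and 10.6% from 1000 to under 2000. At 2000 bases or more they were 9.79% and 17.6%. Of members, 36%, 44%, 40% and 50% in those classes were lower. In replicates 4 to 6, 42 members were higher in the libraries labelled SE than with PE and 0 lower, against 15.2% and 15.8% of all genes, led by Uqcrh at 1.72 ± 0.13, Atp5k at 0.93 ± 0.11 and Sdhd at 0.73 ± 0.06. Those SE libraries lack the IFNγ response that the PE libraries show, so the peptide and the IFNγ response cannot be told apart there. In that set 29.4% of other protein-coding genes under 600 bases were higher in the libraries labelled SE and 11.2% lower. In the longer classes these shares were 21.2% and 12.5%, 17.4% and 17.9%, and 17.8% and 19.9%. Of members, 64%, 60%, 40% and 50% by class were higher. The part of transcript length in the SE to PE differences was not tested. Between the sets, the SE to PE difference passed the test for 59 members, all higher in replicates 4 to 6, against 12.4% of all genes in that direction.

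In the IFNγ series, the libraries labelled SE 4 to 6 apart, most mitochondrially encoded subunits were lower, while the assembly factors changed in both directions. Gene results for those SE libraries are not given in this paragraph. In replicates 4 to 6 mitochondrial transcripts took 4.86 ± 0.449% of counts in PBS, 5.54 ± 0.503% in the libraries labelled SE and 3.42 ± 0.102% with PE. The 13 mitochondrially encoded subunits, which pair with nuclear subunits in complexes I, III, IV and V, were lower by the same test for 12 genes with SE and 11 with PE in replicates 1 to 3 (medians -1.47 and -1.20), and for 10 genes with PE in replicates 4 to 6 (median -0.53). Of all genes, 24.6%, 24.3% and 12.1% were lower in those contrasts. The catalytic subunit of complex IV, mt-Co1, passed in none of these, at -0.01 with SE and -0.13 with PE in replicates 1 to 3 and -0.18 with PE in replicates 4 to 6. mt-Cytb, the core of complex III, fell by 1.99 with SE and 1.71 with PE in replicates 1 to 3 and by 1.33 with PE in replicates 4 to 6. Of 44 assembly factors, which build the complexes but stay outside them, 13 (29.5%) fell and 7 (15.9%) rose with SE in replicates 1 to 3, against 24.6% and 24.3% of all genes. With PE, 6 (13.6%) fell and 10 (22.7%) rose in replicates 1 to 3, against 24.3% and 23.2% of all genes, and 3 (6.82%) fell and 2 (4.55%) rose in replicates 4 to 6, against 12.1% and 12.5%. Of the 17 assembly factors of complex IV, 2 fell and 5 rose with PE in replicates 1 to 3, and 2 fell and 1 rose in replicates 4 to 6. The 2 that fell, Pet100 and Cox20, did so by 0.73 and 0.98 in replicates 1 to 3 and by 0.71 and 0.67 in replicates 4 to 6.

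Regulators known to act on these genes moved in both directions. Of 13 tested in replicates 1 to 3, 5 (38.5%) fell and 4 (30.8%) rose with SE and 4 (30.8%) fell and 2 (15.4%) rose with PE, beside the same shares of all genes as above. Of 14 tested in replicates 4 to 6, 3 (21.4%) fell and 1 (7.14%) rose with PE. Tfb2m, a mitochondrial transcription factor, fell with PE by 1.03 and 0.53 in the 2 sets, and Ppargc1b, a coactivator of respiratory genes, by 0.86 and 0.53. Nrf1, the nuclear respiratory factor, rose by 0.52 with SE and 0.72 with PE in replicates 1 to 3, and Myc rose by 3.55 and 1.67. Neither passed the test with PE in replicates 4 to 6, at 0.21 for Nrf1 and -0.45 for Myc. A list of 5 related genes that the symbol pattern misses held the subunits Ndufab1, Cyc1 and Usmg5, the electron carrier cytochrome c (Cycs) and the ATP synthase inhibitor Atpif1. Usmg5, a small ATP synthase subunit, fell with PE by 0.31 and 0.26 in the 2 sets. Cycs rose with PE by 0.19 in replicates 1 to 3, and Atpif1 fell with SE by 0.28 and rose with PE by 0.18 there. Ndufab1 and Cyc1 passed the test against PBS in neither set. The 10 macrophage markers, none at 0 in any library, summed to 9011 to 9729 CPM in PBS, 7236 to 7697 with SE and 6658 to 6850 with PE in replicates 1 to 3, and to 5002 to 6524 in PBS and 6890 to 7582 with PE in replicates 4 to 6. The T cell list summed to 7.31 to 10.6 CPM in PBS, 15.2 to 18.2 with SE and 16.98 to 18.4 with PE in replicates 1 to 3. The part of these shifts in the members' changes was not tested.

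Promoter sequence was at hand for 66 of the 78 members, as 72 RefSeq promoters on GRCm38.p6. The NRF1 core GCATGCGC stood on either strand in 11.1% of them, against 2.26% of 32851 promoters of the same length. Shares were 4.17% against 2.88% for the ETS motif CCGGAAGT, 2.78% against 0.606% for the YY1 motif AAGATGGCG, 1.39% against 0.387% for the ERR motif TCAAGGTCA, 12.5% against 10.4% for the SP1 motif GGGGCGGGG and 5.56% against 1.55% for the CRE motif TGACGTCA. The ETS, YY1, ERR, SP1 and CRE motifs stood in 3, 2, 1, 9 and 4 of the 72 member promoters. All searches covered the 250 bases upstream of the start site. The NRF1 core nearly mirrors itself, so a run can match on both strands. Of the 19 members lower with PE in both IFNγ sets, 4 are shown as examples. Among the others, Atp5k and Atp5l have the NRF1 core, Atp5j the YY1 motif and Uqcr11 the ETS motif in the bases searched. The part of any motif in the changes was not tested. The stretches lie just upstream, 5′ to 3′ on the strand of the gene, with a searched motif in capitals: Uqcrh (chr4:116075072-116075170, minus strand) has the ETS motif in reverse complement, Atp5g3 (chr2:73911327-73911426, minus) has the ERR motif in reverse complement, and Ndufb3 (chr1:58586297-58586383, plus) and Sdhd (chr9:50603850-50603949, minus) have none of the letters searched.
Uqcrh: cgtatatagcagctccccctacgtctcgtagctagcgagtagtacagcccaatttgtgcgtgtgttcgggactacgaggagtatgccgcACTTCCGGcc
Atp5g3: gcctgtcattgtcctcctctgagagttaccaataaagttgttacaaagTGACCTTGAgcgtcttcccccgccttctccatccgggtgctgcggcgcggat
Ndufb3: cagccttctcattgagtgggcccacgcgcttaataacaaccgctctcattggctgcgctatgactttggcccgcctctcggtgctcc
Sdhd: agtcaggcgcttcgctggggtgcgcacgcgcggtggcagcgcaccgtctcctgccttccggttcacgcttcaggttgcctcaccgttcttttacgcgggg

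The genes for subunit c of the ATP synthase, Atp5g1, Atp5g2 and Atp5g3, encode the same mature protein, so their shares of the summed level per kilobase show how its transcripts were divided. In PBS replicates 1 to 3 of the IFNγ series Atp5g3 held 34.6 ± 3.00% (SD, n = 3), against 26.5 ± 0.782% with SE and 26.1 ± 0.301% with PE, and Atp5g2 held 56.9 ± 3.14%, 65.9 ± 0.297% and 64.5 ± 0.538%. In replicates 4 to 6 Atp5g3 held 28.5 ± 1.47% in PBS, 28.7 ± 0.120% in the libraries labelled SE and 22.9 ± 1.07% with PE. Atp5g3 itself fell with PE by 0.59 and 0.54 in the 2 sets, while Atp5g2 stood at -0.01 and -0.09, not past the test. In the Il-4 series Atp5g3 held the largest share, 72.6 ± 2.07% in PBS replicates 1 to 3. Atp5g2 stood at 97.0 CPM per kb in those libraries, against 331 CPM per kb in PBS replicates 1 to 3 of the IFNγ table. Atp5g3 stood at 357 against 201 CPM per kb. Both groups are PBS cells that lacked the response of the cytokine-induced lists, and the tables were made apart. Protein-coding rows held 85.3 ± 0.155% of counts in the PBS libraries of the IFNγ table and 96.7 ± 1.11% in those of the Il-4 table. No cause of this difference in shares was tested.

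In the Il-4 series the direction was the other way in replicates 1 to 3. With SE, 58 of 78 members rose and 0 fell, against 9.56% of 12350 genes higher and 8.7% lower, and with PE 37 rose and 0 fell, against 5.76% and 4.7%. The medians were 0.46 with SE and 0.39 with PE, and all genes stood at -0.02 in both. SE and PE share their PBS libraries here too. Past 1.5-fold, 11 rose with SE and 4 with PE, against 3.07% and 2.31% of all genes. With SE, 28 of 35 complex I members rose, 2 of 4 of complex II, 7 of 8 of complex III, 13 of 14 of complex IV and 8 of 15 of complex V. With PE the counts were 16, 1, 3, 11 and 6. The replicate numbers paired most of these libraries, and with the replicate number as a block the PE count was 61 and the SE count 63. The SE count fell to 15 without PBS replicate 2, 19 without PBS replicate 3 and 30 without SE replicate 2. The PE count fell to 0 without PBS replicate 2, 1 without PBS replicate 3, 12, 5 and 1 without PE replicate 1, 2 and 3, and was 59 and 56 without SE replicate 1 and 2.

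Uqcrh led here as well. It had 253, 296 and 304 CPM in PBS, 331, 563 and 488 CPM with SE, and 405, 434 and 461 CPM with PE, so that both peptide groups lay above PBS. The changes were 0.75 ± 0.16 (adjusted p = 0.0137) and 0.66 ± 0.16 (adjusted p = 0.0293). Atp5k rose by 0.71 and 0.59, Ndufs8 by 0.60 and 0.39, and Ndufa3, an accessory subunit of complex I, by 0.69 and 0.52. Cox4i1 had 635, 588 and 616 CPM in PBS and 723, 941 and 823 CPM with SE, a change of 0.49 ± 0.10 (adjusted p = 0.0113), and with PE it rose by 0.40. Sdhb rose by 0.48 and 0.35. Some members with large roles did not pass: Atp5b stood at 0.13 and 0.05, Ndufs1 at -0.02 and 0.04, Sdha at 0.11 and 0.04, and Uqcrc2 at 0.06 and 0.12. SE replicate 2 was the highest SE library for Uqcrh, Cox4i1, Atp5k, Ndufs8 and Sdhb, and had the highest summed level of members, 18278 CPM.

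The members' transcripts are short, with a median of 742 bases and a range of 321 to 2900, and change differed with length in these libraries. With SE, 21 of 26 members under 600 bases rose (80.8%), 22 of 25 from 600 to under 1000 bases (88%), 13 of 20 from 1000 to under 2000 bases (65%) and 2 of 6 of 2000 bases or more (33.3%). Among other protein-coding genes the shares in those classes were 50%, 32%, 16.2% and 3.98%. The median changes were 0.51, 0.49, 0.31 and 0.27 for members and 0.46, 0.29, 0.14 and -0.12 for the others. Cytosolic ribosomal protein genes, another class of short and abundant transcripts, rose in 75 of 80 cases with SE and 60 of 80 with PE, and their share of counts was 6.87 ± 0.0874% in PBS, 8.87 ± 1.21% with SE and 8.71 ± 0.287% with PE. The part of transcript length in the members' rise was not tested.

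**Figure D5:**
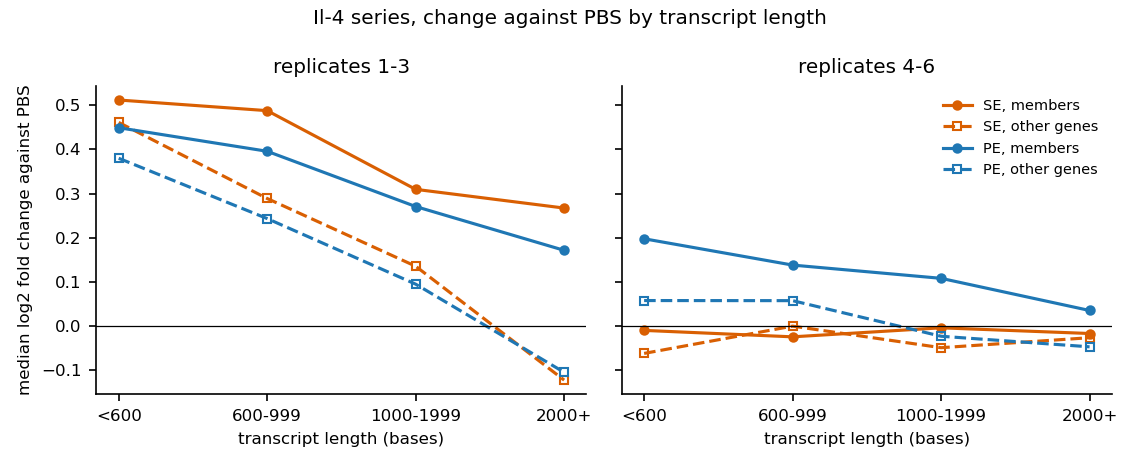
Median log2 fold change against PBS in the Il-4 series by transcript length class (x axis, bases), for the members (circles, solid lines) and the other protein-coding genes tested (squares, dashed lines), SE in orange and PE in blue. In replicates 1 to 3 medians fall with length in both populations, and the members lie above the others in every class.

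In Il-4 replicates 4 to 6 the rise was not detected. With SE, 0 members passed the test by edgeR and 0 by DESeq2, with 9 at an unadjusted p under 0.05, against 0.824% of 13472 genes higher and 0.282% lower. With PE, 1 member rose and 0 fell, against 1.28% and 1.47% of all genes, with 16 members at an unadjusted p under 0.05. That member was Uqcrh, with 203, 171 and 193 CPM in PBS, 284, 262 and 279 CPM with PE and a change of 0.54 ± 0.12 (adjusted p = 0.0395). It did not pass without any 1 of the PBS or PE libraries or without SE replicate 5, and the count was 4 without SE replicate 4. The replicate numbers paired the PE and PBS libraries of this set, and 10 members passed with the replicate block. The medians were -0.02 with SE and 0.14 with PE, and 57 of 78 members had a positive value with PE. The change with SE differed between replicate sets for 9 members, all lower in replicates 4 to 6, against 0.917% of all genes in that direction, and 0 differed with PE, where 0.00705% of all genes did. Those 9 became 37 and 23 without SE replicate 1 and 6, and 0 to 5 without any 1 of the PBS libraries, SE replicates 2 to 5, or PE replicates 1, 2, 3, 5 and 6. Mitochondrial transcripts took 2.12 to 8.52% of counts across the libraries of this set. None of the mitochondrially encoded subunits passed the test against PBS in either set of the Il-4 series, where 7 and 11 of the 13 could be tested and where 5 or 6 were listed at 0 in each library of replicates 1 to 3.

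No difference between SE and PE was detected in the Il-4 series. In both sets 0 members and 0 genes in all passed the test by edgeR, and DESeq2 called 0 members. At an unadjusted p under 0.05 there were 3 members in replicates 1 to 3 and 7 in replicates 4 to 6, and the lowest adjusted p was 0.878 and 0.61. The 95% interval of the difference lay within 1.5-fold for 75 of 78 members in replicates 1 to 3 and 69 of 78 in replicates 4 to 6. Over both sets these intervals reached from -0.81 to 0.91 on the log2 scale. Uqcrh differed between SE and PE by 0.09 ± 0.16 and -0.26 ± 0.12, and Atp5k by 0.12 ± 0.14 and -0.33 ± 0.14.

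Last, the members lower with PE in the IFNγ series were followed into the Il-4 series. The cytokines were not set against each other in a test, because the tables were made apart. Of the 19 members lower with PE in both IFNγ sets, 14 were higher with SE in Il-4 replicates 1 to 3, libraries that share no control with them. Over all 78 members that direction held for 58, so the 19 stood near the share of all members.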

How the data were processed

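Stranded mRNA libraries of RAW264.7 cells, 36 in all, were sequenced as single-end reads. Per the labels and the study's methods, the authors deposited raw read counts per gene, 1 table per cytokine series, made with featureCounts from uniquely aligned reads on GRCm38.p5 with GENCODE annotation. The aligner and the strand setting are not given in the sources used here, so reads of overlapping or near-identical genes may be split. The processing notes also name DESeq2 1.16.1 and R 3.4.1.

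Counts were scaled by TMM and tested with edgeR 4.0.16 (R 4.3.3, quasi-likelihood test, low counts removed with filterByExpr) over all genes, in each replicate set of 9 libraries, with Benjamini-Hochberg adjustment and a threshold of 0.05. Differences between replicate sets were tested in 1 model of 18 libraries. The study used DESeq2, which is an alternative here (version 1.42.0). The scripts were tested on simulated data. P-values measure only the spread between these samples, and intervals are 95% intervals of the fitted difference. A count of 0 allows up to 3 counts, which is 0.0475 to 0.176 CPM across libraries, and covers counting error only.

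The members and gene lists were chosen with earlier results of these data known. Named genes were core subunits and genes of the study's lists, up to 3 largest rises and falls per comparison among members past the test, the 2 largest differences between replicate sets per series, and symbols that missed the count minimum. A member under this rule is not reported here, though the counts include it. Atp5j, Atp5j2, Atp5l, Atp5s, Atp5sl, Ndufa1, Ndufv3 and Uqcr11 fall outside the rule and, like Cox20, Pet100 and the other genes outside the members, were named after their values were seen.

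Replicate numbers in the labels were checked as pairs by the correlation of deviations from group means. Every pair exceeded 0.1 in Il-4 replicates 1 to 3 (0.224 to 0.707) and for PE with PBS in Il-4 replicates 4 to 6 (0.316 to 0.68), but not in the IFNγ series. In Il-4 replicates 1 to 3 another number correlated better for PE with PBS in replicate 3 and for SE with PE in replicate 2. Other alternatives were other scalings, filters and tools, pooled replicate sets, a 1.5-fold minimum and leaving out each library.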

Additional observations from a re-analysis of the deposited data

Results flagged for a closer look

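Several results differed between replicates 1 to 3 and replicates 4 to 6 by a test of the difference itself. In the IFNγ series this held for 50 members in the SE to PBS contrast, 59 in the SE to PE contrast and 5 in the PE to PBS contrast. The largest differences for SE against PBS were those of Ndufa4, at 1.18 ± 0.12 on the log2 scale (standard error, adjusted p = 2.12e-07 by edgeR's quasi-likelihood test), and Uqcrh, at 1.13 ± 0.17 (adjusted p = 2.2e-05), both higher in replicates 4 to 6. The libraries labelled SE 4 to 6 lack the IFNγ response, with an IFNγ-induced list at 72.1 to 80.5 CPM against 1102 to 1259 CPM in SE 1 to 3, and the part of this in the differences was not tested.

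In the Il-4 series the SE to PBS contrast differed for 9 members. Cox6a1, a complex IV subunit, differed by -0.89 (adjusted p = 0.0392) and Atp5d, the δ subunit of the ATP synthase, by -0.81 (adjusted p = 0.0312), both lower in replicates 4 to 6. Cox6a1 had 240, 216 and 214 CPM in PBS and 277, 345 and 321 CPM with SE in replicates 1 to 3, and 147, 150 and 173 CPM in PBS and 81.8, 134 and 140.0 CPM with SE in replicates 4 to 6. The 9 rested on single libraries, with 37 without SE replicate 1, 23 without SE replicate 6, 0 without PBS replicate 2, 3 or 6 or SE replicate 2, 3, 4 or 5, and 1 to 5 without PBS replicate 1, 4 or 5 or PE replicate 1, 2, 3, 5 or 6. The count was 35 with the replicate block.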

How the results depend on the processing

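With the replicate number as a block, members past the test numbered 46, 38 and 34 for SE to PBS, PE to PBS and SE to PE in IFNγ replicates 1 to 3, 3, 22 and 42 in replicates 4 to 6, 63, 61 and 0 in Il-4 replicates 1 to 3, and 2, 10 and 0 in replicates 4 to 6. Differences between replicate sets numbered 51, 3 and 55 in the IFNγ series (SE to PBS, PE to PBS, SE to PE) and 35, 0 and 0 in the Il-4 series with the block. The pairing raised the PE to PBS counts of the Il-4 series from 37 and 1, and the numbers did not pair in the IFNγ series. Pooling the replicate sets with a set term gave, for IFNγ, 0 for SE to PBS in either set and 9 for SE to PE, and for Il-4, 12 for SE to PBS and 25 for PE to PBS. A 1.5-fold minimum left 7, 3 and 1 in IFNγ replicates 1 to 3, 0, 3 and 11 in replicates 4 to 6, 11 and 4 for SE and PE in Il-4 replicates 1 to 3, and 0 for PE in replicates 4 to 6. DESeq2 gave 10 for SE to PBS in IFNγ replicates 4 to 6 and 5 for PE to PBS in Il-4 replicates 4 to 6. Without a low count filter the first was 8, and the differences between sets were 1 for PE in IFNγ and 18 for SE in Il-4, or 14 with 10 or more counts in every library. Setting small RNA, pseudogene and mitochondrial rows aside in the scaling gave 3 such differences for PE in IFNγ. Fitting only the 2 groups compared gave 0 for SE to PBS in IFNγ replicates 4 to 6 and 63 for PE to PBS in Il-4 replicates 1 to 3. The causes of these shifts were not tested.

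Leaving out each library gave 36 to 49, 31 to 39 and 14 to 40 members in IFNγ replicates 1 to 3 (SE to PBS, PE to PBS, SE to PE), 0 to 2, 11 to 26 and 36 to 44 in replicates 4 to 6, 15 to 65, 0 to 59 and 0 in Il-4 replicates 1 to 3, and 0, 0 to 4 and 0 in replicates 4 to 6. Differences between sets ranged over 40 to 50, 1 to 4 and 48 to 59 in IFNγ and 0 to 37, 0 and 0 in Il-4. Directions that turned did so with pooled sets, among them Atp5c1 0.025, Cox7a2 0.024, Ndufv2 0.030 and Uqcrfs1 0.00072 for SE to PBS of IFNγ replicates 1 to 3, Atp5a1 0.075, Ndufa4 0.24, Ndufs8 0.18 and Ndufv2 0.055 for SE to PE of that set, Cox6a2 0.14 for PE to PBS and Ndufb8 -0.074 for SE to PE of replicates 4 to 6. Of 2703 alternative values of 159 named results, 2249 kept direction and call and 443 kept direction only. With 3 libraries per group, small changes may be missed.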
